A study of Rattus norvegicus with 6 samples.

Results

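The 10 genes described here encode the enzymes that make prostanoids from arachidonic acid and the enzyme that starts prostaglandin breakdown. They are Ptgs1, Ptgs2, Ptges, Ptges2, Ptges3, Ptgds, Hpgds, Hpgd, Ptgis and Tbxas1. They were taken by symbol from the probe sets that the array annotation assigns to exactly 1 gene, and for each gene the probe set of highest mean over the 6 arrays was kept. All 10 were measured, among 14506 genes in all. The tissue was the endosalpinx, as the mucosa of the oviduct is called, from 3 mated and 3 unmated adult Sprague-Dawley rats, and each animal had its own Affymetrix array. The mated rats were caged with a fertile male at 2200 h of pro-estrus, had sperm or a vaginal plug at the check 30 min later, stayed with the male, had abundant semen in the uterus and were killed 3 h after mating, at 0130 h. The unmated rats were kept alone, had uterine edema and were killed at the same hour of estrus. The comparison asks how mating changes this tissue before ovulation, and the presence of a male cannot be told apart from mating itself. Ages are given only as adult, and the labels name no drug or transgene.

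Prostanoids are short-lived lipid signals that act close to where they are made. The cyclooxygenases encoded by Ptgs1 and Ptgs2 turn arachidonic acid into prostaglandin H2, and terminal synthases then direct this intermediate into the prostaglandin E, prostaglandin D, prostacyclin or thromboxane branch. Hpgd encodes the 15-hydroxyprostaglandin dehydrogenase, which inactivates prostaglandins once they have been taken up into cells. In the oviduct, prostaglandins are known for their actions on smooth muscle contraction, on cilia and on secretion.

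Values are log2 signals, so a difference of 1 is a doubling. The median signal of an array lay between 7.89 and 7.94. Background was judged from the 1256 odorant and pheromone receptor genes, which are best known from sensory neurons: a gene whose mean did not exceed their 95th percentile, a log2 signal of 7.13, is called within the receptor range. All 8 epithelial markers lay above it, with mean signals of 11.17 to 13.05. So did 7 of 8 measured markers of ciliated cells, 6 of 8 of smooth muscle and 9 of 10 of fibroblasts. Of all genes 71.1% lay above it, so such shares alone do not show which cells were present. Of the other marker lists, 11 of 13 macrophage and 6 of 10 endothelial genes lay above the receptor range. So did 3 of 12 mast cell, 3 of 12 neutrophil and 2 of 5 platelet and megakaryocyte genes. The highest mean signal was 12.18 in the ciliated list, 9.85 in the smooth muscle list and 9.3 in the fibroblast list. It was 12.19 in the macrophage, 13.76 in the neutrophil and 10.62 in the mast cell list. Probe sets differ in brightness, so these maxima do not show which cells were present either. Correlations between arrays over all probe sets ran from 0.992 to 0.995.

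Windows before 3 genes are shown because Ptgs1 and Ptgs2 catalyse the same step with mean differences on opposite sides of 0, and because Hpgd had the lowest difference of the members. Each holds the 250 bases before the gene's start in RefSeq, build GRCr8, written 5′ to 3′ on the gene's own strand. Capitals mark matches, on either strand, to 7 short motifs that were searched. The box that positions transcription starts was searched as TATAAA, the Sp1 motif as GGGCGG, the motif of the factor NF-Y as CCAAT, the E-box as CACGTG, the core of the cyclic AMP response element as TGACG, the C/EBP motif as ATTGCNNAA, and the NF-kB motif by its usual consensus of 10 letters. Ptgs2 lies at chr13:64713813-64714062 on the plus strand, Ptgs1 at chr3:39981169-39981418 on the plus strand and Hpgd at chr16:39034832-39035081 on the minus strand.
Ptgs2: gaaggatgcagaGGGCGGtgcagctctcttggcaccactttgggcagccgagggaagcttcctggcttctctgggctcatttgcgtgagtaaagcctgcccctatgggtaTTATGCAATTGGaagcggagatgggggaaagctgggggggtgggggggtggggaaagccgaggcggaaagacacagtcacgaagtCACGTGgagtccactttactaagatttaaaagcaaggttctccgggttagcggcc
Ptgs1: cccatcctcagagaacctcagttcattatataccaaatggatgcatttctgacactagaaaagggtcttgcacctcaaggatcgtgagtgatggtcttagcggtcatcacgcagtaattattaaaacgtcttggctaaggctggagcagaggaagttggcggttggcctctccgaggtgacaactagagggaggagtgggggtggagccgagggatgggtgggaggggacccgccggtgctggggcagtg
Hpgd: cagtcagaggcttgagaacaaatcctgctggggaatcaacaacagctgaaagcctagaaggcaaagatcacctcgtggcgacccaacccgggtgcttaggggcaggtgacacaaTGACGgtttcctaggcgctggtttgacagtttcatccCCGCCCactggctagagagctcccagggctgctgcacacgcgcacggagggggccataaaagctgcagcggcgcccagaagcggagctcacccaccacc

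The Ptgs2 window held 4 matches. An Sp1 match began 238 bases before the start, a C/EBP match 140 bases before it, an NF-Y match 133 bases before it and an E-box 55 bases before it. The C/EBP and NF-Y matches overlap, and both are on the minus strand, so they appear as a single run of capitals. The Ptgs1 window held no match to any of the 7 motifs. The Hpgd window held a cyclic AMP response element core on the plus strand and an Sp1 match on the minus strand. Of all 33469 promoter windows of this length, 30.5% hold an Sp1 match, 34.0% an NF-Y match, 18.2% a cyclic AMP response element core, 12.9% the TATAAA box, 5.59% an E-box, 2.04% a C/EBP match and 6.33% an NF-kB match. These matches are descriptions of the letters and not evidence of binding. RefSeq windows were found for 7 of the 10 genes, while Ptges2, Hpgds and Ptgis are named only. The windows not printed held 6 matches for Ptges3, an NF-kB match among them, 2 for Ptgds, 1 for Ptges and 1 for Tbxas1. Whether the matches go with the differences between groups was not tested.

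At 3 h after mating, none of the 10 enzyme genes passed the test for a difference between mated and unmated rats. No member passed an adjusted p of 0.05 by limma (adjusted p from 0.984 to 0.993), nor did any of the 14506 genes (0%). No member had an unadjusted p under 0.05 (0 of 10), against 4.57% of all genes. In 7 of 15 alternatives 1 or 2 members did, where 3.87% to 5.81% of all genes did. Tbxas1 did with the replicate number as a block. Ptgds did after a second quantile normalization, after median centring and without the dimmest 25% of genes. Ptgs2 and Tbxas1 did without mated replicate 2, Ptgs1 and Ptgds without unmated replicate 1, and Hpgd without unmated replicate 3. Of the members 6 had a higher mean in mated rats, where 53.3% of all genes did, and this became 5 after a second quantile normalization or median centring, when the small difference of Hpgds changed sign. Differences ran from -0.38 for Hpgd to 0.31 for Tbxas1 on the log2 scale, with a median of 0.02, against 0.01 over all genes. The median size of a difference regardless of direction was 0.15 for the members and 0.067 for all genes, and the median 95% confidence interval extended 0.26 on each side for the members, against 0.20 for all genes.

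**Figure D1:**
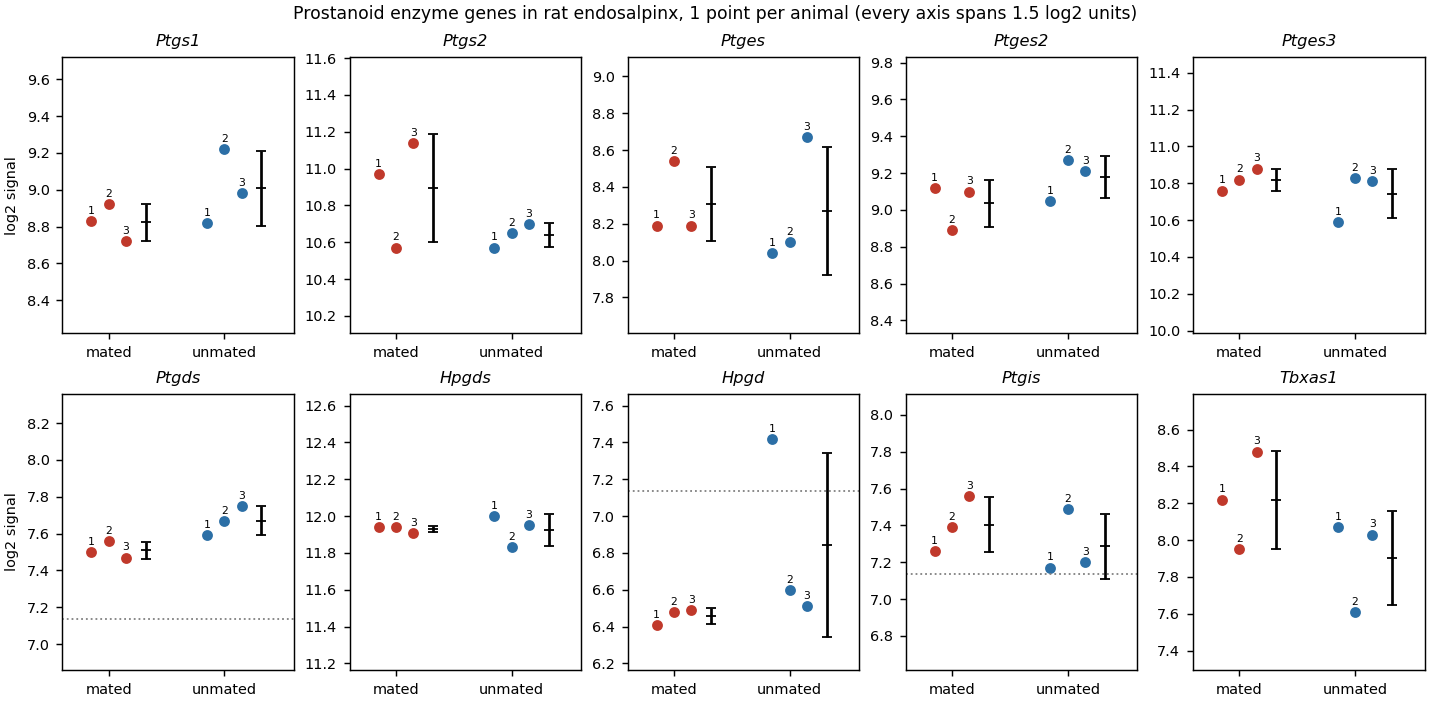
Log2 signal of the 10 genes on each of the 6 arrays, mated rats in red and unmated rats in blue, with replicate numbers above the points; black bars are mean ± SD (n = 3 per group) and the dotted line is the upper limit of the receptor range, 7.13, drawn where it is near the values. The groups overlap in 8 panels; in those of Ptgds and Hpgd all 3 mated points lie below the unmated points.

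Ptgs2, the inducible cyclooxygenase, was well above the receptor range on every array. Its log2 signal was 10.97, 10.57 and 11.14 in mated rats, against 10.57, 10.65 and 10.70 in unmated rats. Mated replicates 1 and 3 were above all unmated rats, while mated replicate 2 was level with the lowest of them, so the groups overlapped. The mean was 10.89 ± 0.29 in mated rats and 10.64 ± 0.07 in unmated rats (SD, n = 3 each), a difference of 0.25 (95% confidence interval -0.06 to 0.57), or 1.19-fold. Without mated replicate 2 the difference was 0.41, and without mated replicate 3 it was 0.13; neither passed the adjusted threshold.

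Ptgs1, the cyclooxygenase that most tissues express without stimulation, had its lower mean in mated rats. The log2 signals were 8.83, 8.92 and 8.72 in mated rats, against 8.82, 9.22 and 8.98 in unmated rats. Unmated replicate 1 lay among the mated values, so the groups overlapped. The mean was 8.82 ± 0.10 in mated rats and 9.01 ± 0.20 in unmated rats (SD, n = 3 each), a difference of -0.18 (95% confidence interval -0.44 to 0.07).

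Because the brightness of a probe set depends on its own probes, signals of different genes do not rank their amounts of RNA. The difference between 2 genes on the same array can still be compared between arrays, since the brightness of each probe set cancels. Ptgs2 minus Ptgs1 was 2.14, 1.65 and 2.42 log2 units in mated rats, against 1.75, 1.43 and 1.72 in unmated rats. The values of mated replicates 1 and 3 exceeded those of all unmated rats and mated replicate 2 did not, and the group means differed by 0.44. This gap must be wider than that of either gene alone, because their mean differences have opposite signs, so its width adds no support. The SD was 0.39 in mated rats and 0.18 in unmated rats. No test was made on these differences, as the pairs were chosen with earlier results known.

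**Figure D2:**
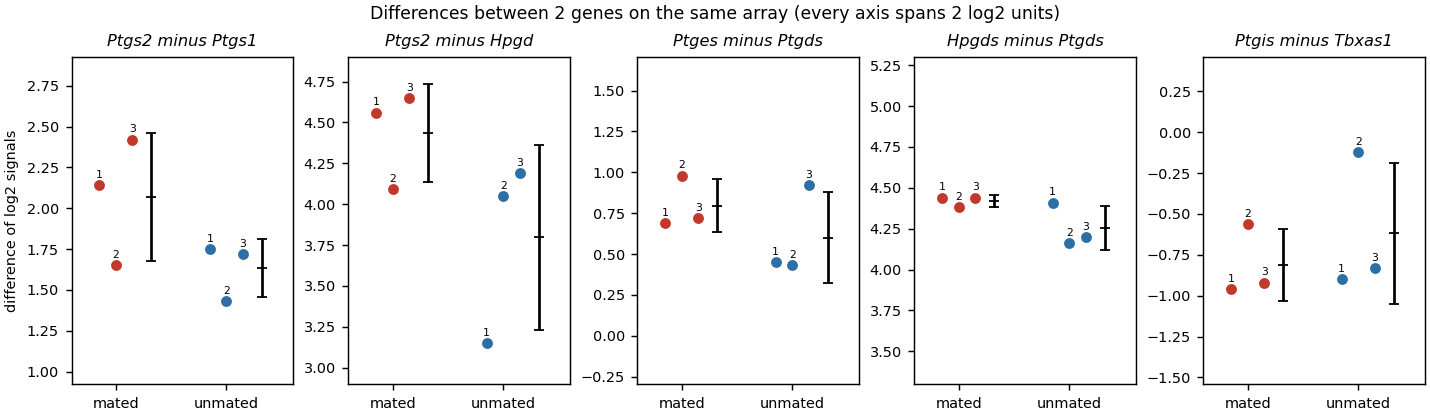
Difference of the log2 signals of 2 genes on the same array, 1 point per array with its replicate number, mated rats in red and unmated rats in blue, with black bars for mean ± SD (n = 3 per group). The groups overlap in all 5 pairs; for Ptgs2 minus Hpgd unmated replicate 1, at 3.15, lies apart from the other arrays.

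In the prostaglandin E branch, none of the 3 synthases passed the threshold, and the groups overlapped for each. Ptges encodes the microsomal synthase that is often induced together with Ptgs2. Its log2 signal was 8.19, 8.54 and 8.19 in mated rats, against 8.04, 8.10 and 8.67 in unmated rats. The highest and the lowest values both belonged to unmated rats, and mated replicate 2 and unmated replicate 3 stood above the other 4 arrays. The mean was 8.31 ± 0.20 in mated rats and 8.27 ± 0.35 in unmated rats (SD, n = 3 each), a difference of 0.04 (95% confidence interval -0.37 to 0.44) whose sign changed when mated replicate 2, unmated replicate 1 or unmated replicate 2 was left out. The order of the arrays for Ptges was not that for Ptgs2: mated replicate 2 was the highest mated array for Ptges and the lowest for Ptgs2.

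Ptges2, the second microsomal synthase, had log2 signals of 9.12, 8.89 and 9.10 in mated rats, against 9.05, 9.27 and 9.21 in unmated rats. Unmated replicate 1 lay among the mated rats, so the groups overlapped, and the difference was -0.14 (95% confidence interval -0.35 to 0.07). Ptges3, which encodes the cytosolic synthase also known as the p23 co-chaperone of Hsp90, lay at 10.76, 10.82 and 10.88 in mated rats and 10.59, 10.83 and 10.81 in unmated rats. Only unmated replicate 1 lay below the mated rats, and the difference was 0.08 (95% confidence interval -0.12 to 0.27), or 0.00 without that array. RefSeq lists a pseudogene of Ptges3, so the copy behind that signal is uncertain.

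The prostaglandin D branch has a pair of unrelated synthases. Hpgds, the glutathione-dependent hematopoietic synthase known from mast cells and other immune cells, was 4.79 log2 units above the limit of the receptor range and nearly constant. The arrays gave log2 signals of 11.94, 11.94 and 11.91 in mated rats, against 12.00, 11.83 and 11.95 in unmated rats. The range over 6 arrays was 0.17, and 79.5% of the 10308 genes above the receptor range had a wider one. The difference was 0.00 (95% confidence interval -0.16 to 0.17), so at this precision a change of Hpgds beyond 0.17 in either direction lies outside the interval.

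Most markers of mast cells were at background. Of the 12 measured, 9 lay within the receptor range, among them the proteases Cpa3, Cma1, Mcpt1, Mcpt4, Tpsab1 and Tpsb2 and the receptor subunits Ms4a2 and Fcer1a, and those above it were Kit, Hdc and Gata2. The mean of the mast cell list relative to unmated rats was -0.002 to 0.071 in mated rats and -0.059 to 0.099 in unmated rats. Macrophage markers were mostly above the range, and their mean was -0.09 to -0.071 in mated rats and -0.079 to 0.095 in unmated rats. Which cells carried Hpgds was not tested, and in a bulk sample fewer cells of a type and less RNA in each cell cannot be told apart.

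Ptgds, the lipocalin-type synthase, which also carries retinoids in body fluids, was the member of smallest unadjusted p. Its log2 signal was 7.50, 7.56 and 7.47 in mated rats, against 7.59, 7.67 and 7.75 in unmated rats, 0.46 above the receptor limit on average. All mated rats were lower than all unmated rats, with a gap of 0.03 between the nearest values. The mean was 7.51 ± 0.05 in mated rats and 7.67 ± 0.08 in unmated rats (SD, n = 3 each), a difference of -0.16 (95% confidence interval -0.33 to 0.01; adjusted p = 0.984 by limma). The groups did not overlap for 2 of the 10 members, Ptgds and Hpgd, both with lower signals in mated rats, and for none was the mated group higher. Over all genes 8.47% did not overlap, 3.23% being lower and 5.24% higher in mated rats. Leaving out any 1 array kept the difference of Ptgds between -0.20 and -0.12.

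**Figure D3:**
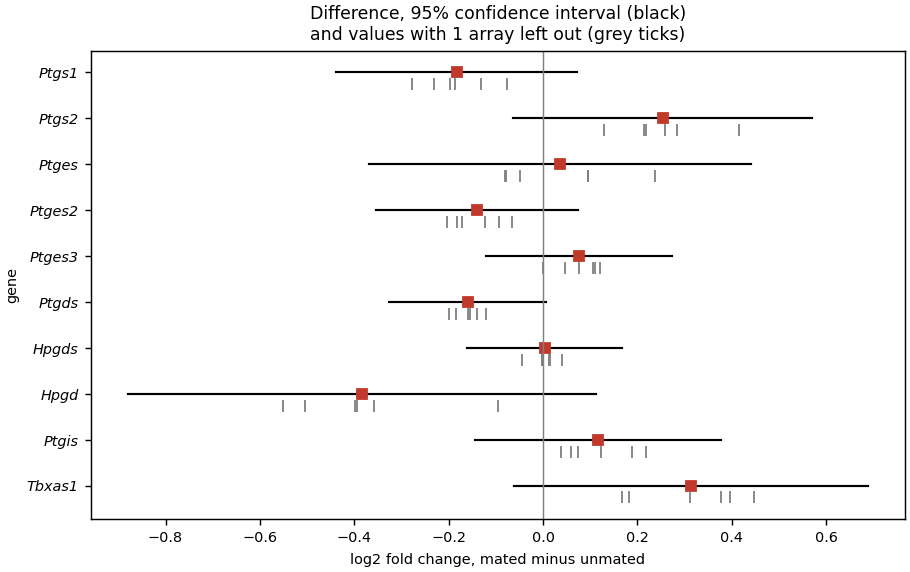
Log2 fold change, mated minus unmated, of each of the 10 genes (red squares) with its 95% confidence interval from the moderated fit (black lines, 6 arrays); grey ticks below each square are the values with 1 of the 6 arrays left out. Every interval includes 0, and the tick of Hpgd nearest to 0, at -0.10, is the fit without unmated replicate 1.

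Hpgd, the enzyme that degrades prostaglandins, had the widest range of the members, and 1 unmated animal set it. The arrays gave log2 signals of 6.41, 6.48 and 6.49 in mated rats, against 7.42, 6.60 and 6.51 in unmated rats. Only unmated replicate 1 lay above the limit of the receptor range; the other 5 arrays lay within 0.19 of each other, inside the range, so the level of Hpgd on them is close to background, and the gap between the nearest mated and unmated values was 0.02. The difference was -0.38 (95% confidence interval -0.88 to 0.11), and without unmated replicate 1 it was -0.10. The range of 1.01 over 6 arrays was exceeded by 1.23% of all genes.

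Genes that stood apart on 1 array were then counted. The threshold of 0.8 was set with the values in view, just under the gap of 0.82 for Hpgd. How many genes are counted therefore depends on that choice. Signals at least 0.8 above those of all other arrays were found on unmated replicate 1 for 5 genes, Hpgd included: Eqtn, Cd34, Fbln2, Hpgd and Cpt2. The same count was 2, 1 and 0 in the mated rats, against 2 and 0 in the other unmated rats. Cd34, a surface protein of vascular endothelium and of some stromal fibroblasts, lay at 7.24, 7.12 and 7.32 in mated rats, against 8.41, 7.41 and 7.17 in unmated rats. Fbln2, which encodes the matrix protein fibulin-2, lay at 9.48, 9.31 and 9.30 in mated rats, against 10.30, 9.13 and 8.99 in unmated rats. Unmated replicate 1 was the highest array for both, as it was for Hpgd.

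The likeness of patterns was measured by Pearson's r over the 6 arrays against the 1271 genes that lay above the receptor range and spanned at least 0.5 log2 units. Igfbp6, which binds insulin-like growth factors, and Cd34 were most like Hpgd, with r = 0.987 and 0.984, and both rest on unmated replicate 1. Some marker lists were also high on unmated replicate 1. The mean of the macrophage list was 0.095 there and between -0.09 and -0.016 on the other 5 arrays. Its markers did not all share this. Lyz2 was highest there, at 10.48, but Mrc1 lay at 7.36, against 7.35 on its lowest array. The mean of the mesothelium list, of 3 genes, was 0.126 there and 0.096 or less elsewhere. Of these genes Wt1 and Upk1b were highest there, at 11.67 and 8.48, while Calb2 was lowest, at 5.25. The fibroblast mean was 0.129, against 0.071 and -0.2 on the other unmated arrays and -0.198 to -0.068 on the mated arrays. The endothelial mean was not highest on unmated replicate 1. It was 0.019 there, against 0.027 and 0.023 on mated replicates 2 and 3. The part of these lists in the Hpgd value was not tested.

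**Figure D4:**
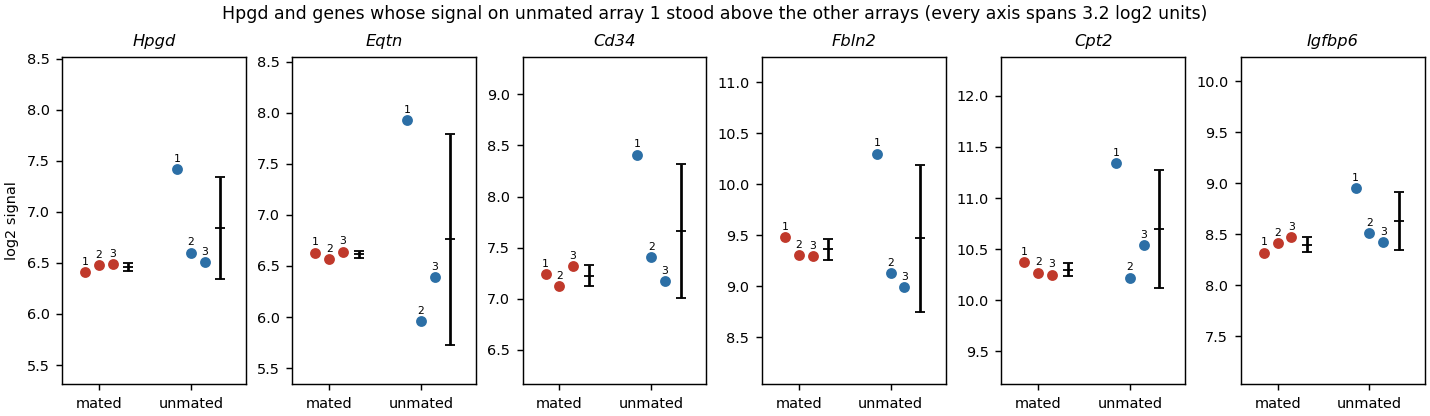
Log2 signal per array of Hpgd, of the 4 other genes whose value on unmated replicate 1 exceeded that on all other arrays by at least 0.8, and of Igfbp6, the gene most like Hpgd over the 6 arrays; mated rats are red and unmated rats blue, with black bars for mean ± SD (n = 3 per group). In each panel unmated replicate 1 is the highest point, at 7.42 for Hpgd and 8.41 for Cd34.

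In the prostacyclin and thromboxane branches, both synthases had higher means in mated rats without passing the threshold. Tbxas1 encodes thromboxane synthase, known from platelets and macrophages. Its log2 signal was 8.22, 7.95 and 8.48 in mated rats, against 8.07, 7.61 and 8.03 in unmated rats. Mated replicates 1 and 3 exceeded all unmated rats and mated replicate 2 lay below unmated replicates 1 and 3, so the groups overlapped. The mean was 8.22 ± 0.27 in mated rats and 7.90 ± 0.25 in unmated rats (SD, n = 3 each), a difference of 0.31 (95% confidence interval -0.06 to 0.69), the highest among the members. Without unmated replicate 2, the lowest array, it was 0.17, and without mated replicate 2 it was 0.45.

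Markers of macrophages and platelets are given beside it, and their part in the Tbxas1 values was not tested. The mean of 13 macrophage markers lay below the unmated mean on all 3 mated arrays. It also did on unmated replicates 2 and 3, at -0.079 and -0.016, as unmated replicate 1 was high at 0.095. Of the 13 markers 9 had lower and 4 higher means in mated rats, with differences from -0.29 to 0.11. Of the 5 measured platelet and megakaryocyte markers, 4 had higher and 1 a lower mean in mated rats, with a median difference of 0.04; Pf4, Ppbp and Gp1ba lay within the receptor range and Gp5 and Gp9 above it. The mean of that list was -0.131, 0.133 and 0.093 in mated rats, against 0.073, -0.083 and 0.011 in unmated rats, with overlap.

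Ptgis encodes prostacyclin synthase, which vascular and smooth muscle cells express. The kept probe set gave 7.26, 7.39 and 7.56 in mated rats, against 7.17, 7.49 and 7.20 in unmated rats, a difference of 0.12 (95% confidence interval -0.14 to 0.38). A further probe set of Ptgis gave 7.41, 7.44 and 7.25 in mated rats, against 7.28, 7.07 and 7.47 in unmated rats, a difference of 0.09. Both means lay just above the receptor limit, and the probe sets ordered the animals differently: mated replicate 3 was highest of all on the kept one and lowest of the mated rats on the further one. The direction of the means was shared, but the per-animal values of Ptgis are therefore not well determined. Ptgis minus Tbxas1 was -0.96, -0.56 and -0.92 in mated rats, against -0.90, -0.12 and -0.83 in unmated rats, and in each group replicate 2 stood above the others.

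The members did not move as a block from array to array. Mated replicate 3 held the highest value of 4 members (Ptgs2, Ptges3, Ptgis and Tbxas1) and the lowest of 2 (Ptgs1 and Ptgds), and unmated replicate 1 held the highest of 2 and the lowest of 4, with mated replicate 2 level with it for Ptgs2. Hpgds minus Ptgds was 4.38 to 4.44 in mated rats and 4.16 to 4.41 in unmated rats. Ptges minus Ptgds was 0.69 to 0.98 in mated rats and 0.43 to 0.92 in unmated rats. Ptgs2 minus Hpgd was 4.09 to 4.65 in mated rats and 3.15 to 4.19 in unmated rats, and as Hpgd is close to background on 5 arrays, this pair mostly shows Ptgs2 and unmated replicate 1. The groups overlapped in each of these pairs.

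Of the members, 4 spanned at least 0.5 log2 units while lying above the receptor range, and each was set against the same 1271 genes. Most like Ptgs2 were Nmt2, an N-myristoyltransferase, with r = 0.953, and P4ha2, a subunit of collagen prolyl hydroxylase, with r = 0.927. P4ha2 lay at 10.54, 10.38 and 10.78 in mated rats, against 10.16, 10.30 and 10.29 in unmated rats, without overlap. The same held for 8.47% of all genes. Most like Tbxas1 were Epas1, a hypoxia-inducible transcription factor, with r = 0.988, and Tpi1l1 with r = 0.982. Most like Ptgs1 were Trib2 (r = 0.966) and Dhrs3, a retinaldehyde reductase (r = 0.961), and most like Ptges were Srgn, the proteoglycan serglycin (r = 0.955), and Krt31 (r = 0.954). With 6 arrays and this many candidates, values of this size are a ranking and not a finding.

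Genes upstream and downstream of the enzymes were also without a call, and 0 genes in each of 5 lists passed in either direction by limma, as over all genes (0%). Over all genes, 53.3% had a higher mean in mated rats and 4.57% an unadjusted p under 0.05. For 8.47% of all genes the groups did not overlap. The counts and the single genes of the lists below are to be read beside these shares. Of 21 measured genes that release arachidonic acid or return it to phospholipids, 12 had higher and 9 lower means in mated rats, with a median of 0.02, and 0 had an unadjusted p under 0.05. Mgll, the monoacylglycerol lipase, had the smallest p, at 10.59, 10.80 and 10.79 in mated rats, against 10.97, 10.84 and 10.84 in unmated rats, without overlap. Pla2g1b, a secreted phospholipase, differed by 0.30 (95% confidence interval -0.08 to 0.67).

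Of 16 measured genes of prostaglandin F synthesis and of later steps of breakdown, 6 had higher and 10 lower means in mated rats, with a median of -0.05 and 0 at an unadjusted p under 0.05. Those of smallest p were Akr1c2 at a difference of 0.15 and Akr1b10 at 0.13, aldo-keto reductases within the receptor range that have close relatives in the rat genome, so which copy was measured is uncertain. Of 13 prostanoid receptors and transporters, 5 had higher and 8 lower means. Ptgdr2, a receptor for prostaglandin D2, lay at 7.45, 7.14 and 7.37 in mated rats, against 7.84, 7.64 and 7.41 in unmated rats. Its difference was -0.31 (95% confidence interval -0.60 to -0.02), with an adjusted p of 0.984 by limma. It was the only gene of the 13 at an unadjusted p under 0.05, where 4.57% of all genes were. Ptgfrn, a membrane protein that associates with the prostaglandin F receptor, differed by -0.10.

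The neighbouring lipoxygenase and leukotriene pathway, which competes for arachidonic acid, had 3 of 15 genes at an unadjusted p under 0.05, against 4.57% of all genes, and none of them passed after adjustment. Mgst2, a microsomal glutathione transferase that can make leukotriene C4, lay at 11.80, 12.05 and 11.88 in mated rats, against 11.32, 11.02 and 11.77 in unmated rats, without overlap and with a difference of 0.54 (95% confidence interval 0.14 to 0.94; adjusted p = 0.984 by limma). Ggt1, a gamma-glutamyltransferase, lay at 10.26, 10.52 and 10.28 in mated rats, against 10.14, 10.08 and 10.19 in unmated rats, also without overlap, a difference of 0.22. For Alox15, which oxygenates arachidonic acid and was picked with its values in view, the difference was -0.25, with overlap. The median of the list was -0.01.

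Known regulators of Ptgs2 had 7 of 18 measured genes with higher means in mated rats and 0 at an unadjusted p under 0.05. Cebpd, a C/EBP transcription factor, lay at 8.39, 8.50 and 8.50 in mated rats, against 8.32, 8.34 and 8.34 in unmated rats, without overlap and with a difference of 0.13 (95% confidence interval -0.02 to 0.28). Il1a, a cytokine that induces Ptgs2 in many cells, lay within the receptor range and differed by -0.17. Cebpb, also a C/EBP gene, lay at 8.64, 8.44 and 8.56 in mated rats. In unmated rats it lay at 8.52, 8.44 and 8.35, with overlap. Mated replicate 2, the lowest mated array for Ptgs2, was level with mated replicate 3 as the highest for Cebpd. The Ptgs2 window printed above holds a C/EBP match, which says nothing about binding in these animals. Whether Cebpd or Cebpb bears on Ptgs2 here was not tested.

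**Figure D5:**
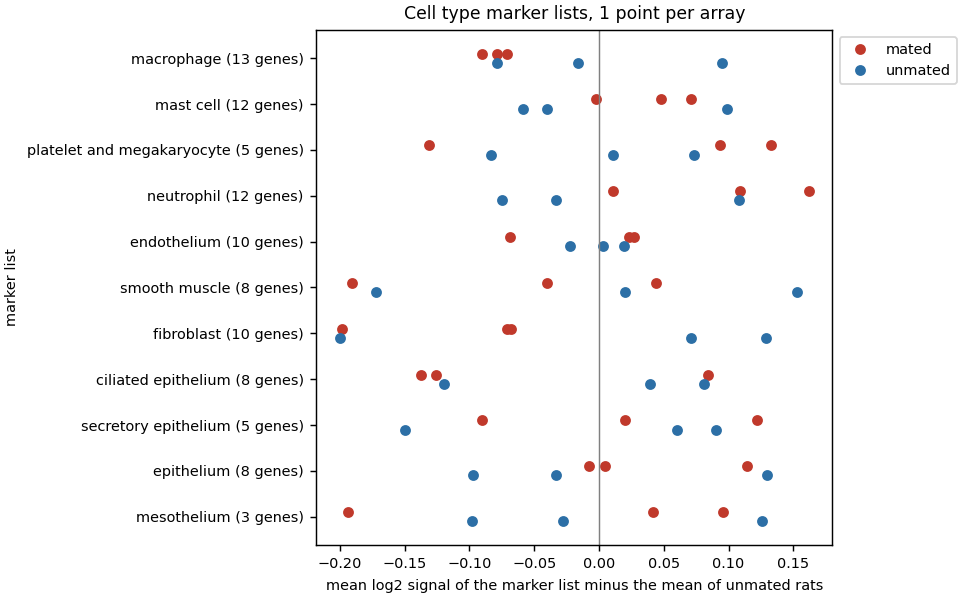
Mean log2 signal of each cell type marker list on each array minus the mean of the unmated rats, mated rats in red and unmated rats in blue, with the number of measured genes after each name. All points lie between -0.2 and 0.162, and the groups overlap in every list.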

How the data were processed

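RNA from the endosalpinx of 3 mated and 3 unmated rats was hybridised to 1 array per animal, from 0.3 µg of total RNA per the labels. The deposited log2 signals were made by the authors with RMA in Affymetrix Expression Console, per the submitters' processing notes, which give no versions. RMA equalises the distributions of arrays and so hides a common shift of most genes. The build used for the probe sets was not given in the sources used here.

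Of 29214 probe sets, 15310 had exactly 1 gene symbol, 323 several and 13581 none listed. Keeping the brightest per gene gave 14506 genes; 11 probe sets belonged to the 10 members. Groups were compared by limma 3.58.1 in R 4.3.3 (lmFit, eBayes, two-sided) with Benjamini-Hochberg adjustment over all genes. Before this, the fit was tested on simulated data in which the planted changes were doublings or halvings. Those changes are larger than any difference of a member. The simulation therefore does not show whether changes as small as those of the members would be found. The members and lists were chosen with earlier results of these data known. Besides the members, the text names the 2 genes of smallest unadjusted p in each of 5 other pathway lists and the 2 genes most like each member that is above the receptor range and spans at least 0.5 log2 units. Other genes, the search for genes like Hpgd included, were picked with their values in view. Deviations of same-numbered mated and unmated arrays correlated at 0.004, -0.083 and 0.074, so over all genes they did not deviate together. For Tbxas1 the standard error was 0.162 in the main fit and 0.088 with the replicate number as a block. The labels name no batch, and whether same-numbered arrays were handled together was not tested.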

Additional observations from a re-analysis of the deposited data

How the results depend on the processing

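Under 15 alternatives the number of genes past the threshold stayed at 0, over all genes and among the members, and the lowest adjusted p of a member was 0.55. With the replicate number as a block both counts were 0 as well. The number of members with higher means in mated rats, 6 as deposited, was 4 to 6 with 1 array left out, and 3 of the 5 members left when the dimmest 50% of genes were removed; Hpgd was also removed with the dimmest 25%. Of 144 recomputed differences of members, 135 kept their direction and 1, that of Ptges3 without unmated replicate 1, came to 0. Many of these could not change. The block, the intensity trend, the robust fit and the removal of dim genes leave each difference as it is. Averaging all probe sets of a gene alters only Ptgis among the members. The count of 135 therefore overstates how stable the directions were. Hpgds, at 0.003 as deposited, was at -0.010 after a second quantile normalization, -0.013 after median centring and between -0.045 and 0.040 with 1 array left out. Ptges was between -0.08 and 0.24 with 1 array left out. With 1 array left out, Hpgd ran from -0.55 to -0.10 and Ptgs2 from 0.13 to 0.41. Ptgis minus Tbxas1, at -0.20 between groups, came to 0.05 when unmated replicate 2 was left out. Genes at an unadjusted p under 0.05 numbered 663 as deposited, 672 with the block, 1207 with array weights and 1403 without mated replicate 1; the cause was not tested. With 3 animals per group, an interval of a member reached 0.16 to 0.50 to either side.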
